A study of Mus musculus with 11 samples.

Results

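Dbx1, Rfx4 and Lmo3 are genes of brain and neural tube development that were nearly silent in control mouse retina and present in retina that had lost both Six3 and Six6. They were chosen by name, as 3 of the 13498 genes in the table of read counts, because earlier results of these data showed them low in WT and gained in DKO, so their levels in those groups are given as a description with no test. Total RNA was sequenced from pairs of retinas of NMRI embryos at E13.5, in 11 libraries. WT (3 libraries) was Six3F/F; Six6+/+ with no Cre. Six3KO (3 libraries) was Six3F/F; CAGGCre-ERTM; Six6+/+, Six6KO (2 libraries) was Six3F/F; Six6-/- with no Cre, and DKO (3 libraries) was Six3F/F; CAGGCre-ERTM; Six6-/-. All groups thus carried floxed Six3 alleles, and all dams received 0.15 mL of tamoxifen at 20 mg/mL at E10.5 and again at E11.5. CAGGCre-ERTM is a broadly expressed recombinase that tamoxifen activates, so Six3 could be deleted in any tissue of the embryo from that time on, while Six6 was absent from the germ line. Because Cre is present only in Six3KO and DKO, loss of Six3 and presence of Cre cannot be told apart in a comparison with WT or Six6KO.

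Six3 and Six6 are related homeodomain factors of the eye field and of retinal progenitors. Dbx1 encodes a homeodomain factor of progenitors midway along the dorsoventral axis of the spinal cord and hindbrain, where it directs the formation of V0 interneurons, and of a few forebrain borders that give rise to Cajal-Retzius cells. Rfx4 encodes a winged-helix factor of the RFX family, whose members bind X-box sequences and control cilium genes, and it is required for the dorsal midline of the forebrain. Lmo3 encodes a LIM-only protein, which does not bind DNA itself and joins LDB proteins and other transcription factors in shared complexes.

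The sequences directly before the start sites are shown as a description. That the 3 genes were gained in the same libraries follows from how they were chosen. They are 250 bases long, from RefSeq on GRCm38.p6, written 5′ to 3′ on the strand of the gene. Capitals mark the letters of 5 motifs searched for on both strands. The first was TGATAC, a core bound by Six3 and its relatives. The next was GTTGCC, which is part of the X-box that proteins of the RFX family bind. The others were TATAAA, the usual form of the TATA box, the homeodomain palindrome given by the letters TAATTA, and the CCAAT box with its letters of that name. None overlapped another in these windows. The windows are chr7:49636836-49637085 (minus strand) for Dbx1, chr10:84755798-84756047 (plus strand) for Rfx4 and chr6:138581969-138582218 (minus strand) for Lmo3.
Dbx1: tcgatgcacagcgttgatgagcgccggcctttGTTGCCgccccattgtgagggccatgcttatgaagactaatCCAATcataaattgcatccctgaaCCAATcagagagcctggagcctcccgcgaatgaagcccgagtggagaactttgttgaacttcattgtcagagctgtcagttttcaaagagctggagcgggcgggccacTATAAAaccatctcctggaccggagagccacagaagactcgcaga
Rfx4: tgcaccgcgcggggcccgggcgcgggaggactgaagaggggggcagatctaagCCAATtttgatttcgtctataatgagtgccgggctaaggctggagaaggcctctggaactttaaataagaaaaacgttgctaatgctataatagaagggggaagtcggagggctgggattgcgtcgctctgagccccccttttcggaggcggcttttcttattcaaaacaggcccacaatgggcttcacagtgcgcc
Lmo3: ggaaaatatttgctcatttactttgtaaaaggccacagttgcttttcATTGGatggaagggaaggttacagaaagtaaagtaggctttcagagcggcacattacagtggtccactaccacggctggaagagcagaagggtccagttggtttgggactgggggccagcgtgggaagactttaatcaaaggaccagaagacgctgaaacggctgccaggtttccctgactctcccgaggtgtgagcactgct
Each window held CCAAT in one orientation or the other, as did 33.8% of 32851 promoter windows of the same length. In the Dbx1 window it occurred at 177 and 153 bases before the start site, in the Rfx4 window at 197 bases, and in the Lmo3 window at 203 bases on the opposite strand. The Dbx1 window also held TATAAA 45 bases before the start site (12.4% of all windows) and GTTGCC 218 bases before it (10.4%). TGATAC (4.64% of all windows) and TAATTA (4.84%) were not found in these windows. A second Rfx4 start site, at position 84838148 of chromosome 10, had none of the 5 motifs in its window. These matches are descriptions of letters, and no binding was measured.

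The genes lie on separate chromosomes. In the GENCODE vM21 annotation of GRCm38, Dbx1 (ENSMUSG00000030507.6) is a compact gene on the minus strand of chromosome 7, from 49631499 to 49636849, with 2.091 kb of exons. Rfx4 (ENSMUSG00000020037.15) spans 150.5 kb of the plus strand of chromosome 10, from 84756062 to 84906538, with 4.724 kb of exons. Lmo3 (ENSMUSG00000030226.12) spans 219.1 kb of the minus strand of chromosome 6, from 138362918 to 138581968, with 5.135 kb of exons. Antisense genes lie within Lmo3 and a small RNA gene within Rfx4, but the exons of the 3 genes share 0 bases with exons of any other annotated gene, so their reads are not split with a neighbour whichever strand setting was used in counting.

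Libraries held 7807744 to 16403191 reads in genes, and 13292 genes were tested. Six3 stood at 164 to 299 CPM (reads scaled to library size and by TMM, a correction for library composition) in WT, 30.3 to 75.9 CPM in Six3KO and 56.2 to 98.2 CPM in DKO. Six6 stood at 225 to 340 CPM in WT, 76.8 to 131 CPM in Six6KO and 52.8 to 99.8 CPM in DKO. Where they were not targeted, Six3 stood at 142 to 307 CPM in Six6KO and Six6 at 168 to 339 CPM in Six3KO. Every library thus lay on the side its label gives. Six3 in Six6KO rh020 and Six6 in Six3KO rh026 were nonetheless below all WT libraries. Exons of both genes overlap those of an opposite-strand gene of the table. Esr1, from which the hormone-binding part of Cre-ERTM derives, stood at 50.2 to 62.0 CPM in the 6 libraries with Cre and at 0.625 CPM or less in the others. The summed level of 10 retinal progenitor markers was 5779 to 8359 CPM in WT, 3458 to 6360 CPM in Six3KO, 4222 to 6710 CPM in Six6KO and 3867 to 5419 CPM in DKO, with none at 0 in any library.

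Dbx1 was almost without reads outside DKO. It had 2, 1 and 0 reads in WT libraries rh016, rh023 and rh024, 1, 1 and 3 reads in Six3KO libraries rh006, rh012 and rh026, and 0 and 2 reads in Six6KO libraries rh007 and rh020. The DKO libraries rh010, rh011 and rh021 held 189, 183 and 101 reads. In CPM the 8 libraries of the other groups lay between 0 and 0.303, and the DKO libraries lay at 15.5, 15.2 and 8.01, so the lowest DKO library was 26.5 times the highest of the others. A count of 0 allows a level of up to 0.382 CPM in WT library rh024 and 0.348 CPM in Six6KO library rh007, for counting error only. With 473 reads in DKO against 5 in Six3KO, the ratio was 94.3 (exact 95% counting interval 40.1 to 292). Against the 2 reads of Six6KO it was 115 (31.7 to 954), and against the 3 reads of WT it was 125 (42.6 to 609). These intervals cover counting error only, not the spread between embryos.

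Rfx4 was low but detected in all libraries. It had 8, 7 and 6 reads in WT (0.625, 0.809 and 0.765 CPM), 15, 5 and 1 in Six3KO (0.912, 0.480 and 0.101 CPM) and 14 and 5 in Six6KO (1.62 and 0.535 CPM). The DKO libraries rh010, rh011 and rh021 held 245, 345 and 81 reads, or 20.1, 28.6 and 6.42 CPM. Groups did not overlap between DKO and the rest, but the gap was the narrowest of the 3 genes, with library rh021 at 3.95 times Six6KO library rh007. The group means were 0.733 ± 0.0961 CPM in WT (SD, n = 3), 0.498 ± 0.406 CPM in Six3KO (n = 3) and 18.4 ± 11.2 CPM in DKO (n = 3). The log2 fold change of DKO was 4.64 ± 0.74 (standard error) over WT, 5.09 ± 0.75 over Six3KO and 4.08 ± 0.85 over Six6KO.

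Lmo3 had the highest level per length of the 3 genes outside DKO, with a WT mean of 0.272 RPKM (CPM per kilobase of exon) against 0.155 RPKM for Rfx4 and 0.0433 RPKM for Dbx1. Its reads numbered 29, 10 and 6 in WT (2.27, 1.16 and 0.765 CPM), 23, 12 and 20 in Six3KO (1.40, 1.15 and 2.02 CPM) and 20 and 16 in Six6KO (2.32 and 1.71 CPM). In DKO libraries rh010, rh011 and rh021 it had 284, 328 and 171 reads, or 23.3, 27.2 and 13.6 CPM. WT spanned the values of both single mutants almost entirely, whereas the lowest DKO library was 5.84 times the highest library of any other group. The mean was 1.40 ± 0.779 CPM in WT (SD, n = 3), 1.52 ± 0.446 CPM in Six3KO (n = 3) and 21.3 ± 7.01 CPM in DKO (n = 3). The log2 fold change of DKO was 3.88 ± 0.44 over WT, 3.80 ± 0.44 over Six3KO and 3.40 ± 0.51 over Six6KO, comparisons that share the DKO libraries.

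**Figure D1:**
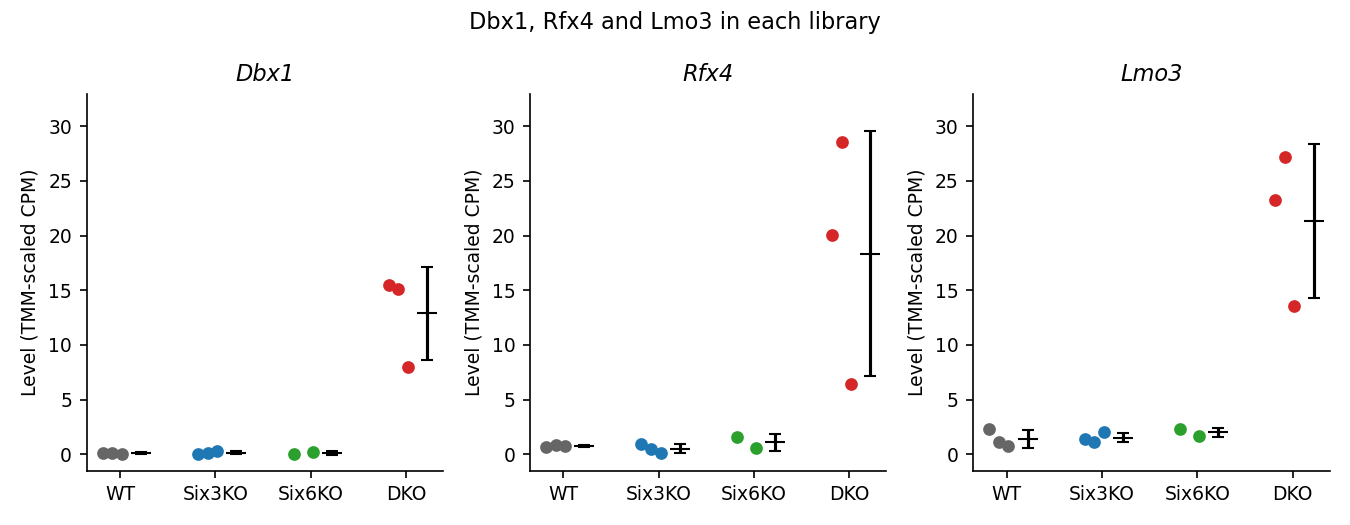
Level of Dbx1, Rfx4 and Lmo3 (vertical axes, TMM-scaled CPM) in each library (points) of the 4 groups (horizontal axes), with the group mean and SD as a black bar (n = 2 for Six6KO, 3 for the others). The DKO libraries run from 8.01 to 15.5 CPM for Dbx1, 6.42 to 28.6 CPM for Rfx4 and 13.6 to 27.2 CPM for Lmo3, and no library of another group exceeds 2.32 CPM.

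By group mean, the order of levels was WT, Six6KO, Six3KO, DKO for Dbx1, Six3KO, WT, Six6KO, DKO for Rfx4, and WT, Six3KO, Six6KO, DKO for Lmo3. The lower 3 places of each order overlapped between libraries, and only DKO stood apart. Every DKO library exceeded every WT library for 3 of 3 genes, which follows from how they were chosen. Of all tested genes, 9.03% were higher in DKO than in WT without overlap. Without overlap, 13.4% of all genes were higher in DKO than in Six3KO and 16.8% were higher than in Six6KO. The same DKO libraries enter each of these comparisons, and nothing is read from the count of the 3 genes.

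The single mutants were not used to choose the genes, and the difference between them was tested for Lmo3. Six3KO against Six6KO gave a log2 difference of -0.41 ± 0.48 for Lmo3 (unadjusted p = 0.416, adjusted p = 1 in edgeR's quasi-likelihood test, Benjamini-Hochberg over all genes). Dbx1 (5 and 2 reads) and Rfx4 (21 and 19 reads) passed the filter on low counts only through the DKO libraries, so their differences of 0.33 ± 1.15 and -1.0 ± 0.83 are given with no test. In that comparison 1 gene in all (0.00752% of those tested) was called, and that gene was Esr1. The intervals are wide. On read counts alone the ratio of Six3KO to Six6KO was 1.22 (exact 95% counting interval 0.200 to 12.8) for Dbx1, 0.540 (0.276 to 1.06) for Rfx4 and 0.746 (0.482 to 1.17) for Lmo3. Against WT, whose low level was part of the choice, Six3KO stood at log2 0.45 ± 1.01 for Dbx1, -0.45 ± 0.78 for Rfx4 and 0.08 ± 0.44 for Lmo3. Six6KO stood at 0.13 ± 1.23, 0.55 ± 0.83 and 0.49 ± 0.48 against WT in the same order. The DKO value exceeded the sum of both single-mutant differences by log2 6.27 ± 1.57 for Dbx1, 4.53 ± 1.12 for Rfx4 and 3.32 ± 0.65 for Lmo3, given as a description because WT and DKO enter it. The Six3KO libraries, which carry Cre, held at most 0.303 CPM of Dbx1, 0.912 CPM of Rfx4 and 2.02 CPM of Lmo3. A part of Cre in the gain, alone or together with loss of Six6, was not tested.

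Per kilobase of exon, the genes reached like levels in DKO. Dbx1 stood at 6.16 ± 2.02 RPKM (SD, n = 3), Lmo3 at 4.15 ± 1.37 and Rfx4 at 3.89 ± 2.37 RPKM, which placed them above 44.4%, 33.7% and 32.2% of the 13015 tested genes with a known exon length. In WT they stood above 0.231%, 1.38% and 0.761% in the same order of those genes. Dbx1 had the highest level per length in each DKO library, at 7.41, 7.25 and 3.83 RPKM in rh010, rh011 and rh021. Rfx4 (4.25, 6.05 and 1.36 RPKM) and Lmo3 (4.53, 5.29 and 2.64 RPKM) changed places between libraries. Lengths are those of all annotated exons joined, so a gene with several isoforms is understated.

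Within DKO, library rh021 was the lowest for all 3 genes. It held 51.7% of the highest DKO level for Dbx1, 49.9% for Lmo3 and 22.5% for Rfx4. The same library held the most of both targeted genes, with Six3 at 98.2 CPM against 57.3 and 56.2 CPM in rh010 and rh011, and Six6 at 99.8 CPM against 56.0 and 52.8 CPM. Libraries rh010 and rh011 differed little in Dbx1 (15.5 and 15.2 CPM) and more in Rfx4 (20.1 and 28.6 CPM). The summed retinal progenitor markers were highest in rh021 too, at 5419 CPM against 4020 and 3867 CPM in rh010 and rh011. Six6 was lost in the germ line in all 3 libraries. With 3 libraries the relation to the targeted transcripts or to the progenitor sum was not tested. Reads of Six3 and Six6 per gene also do not show whether an intact transcript was counted.

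**Figure D2:**
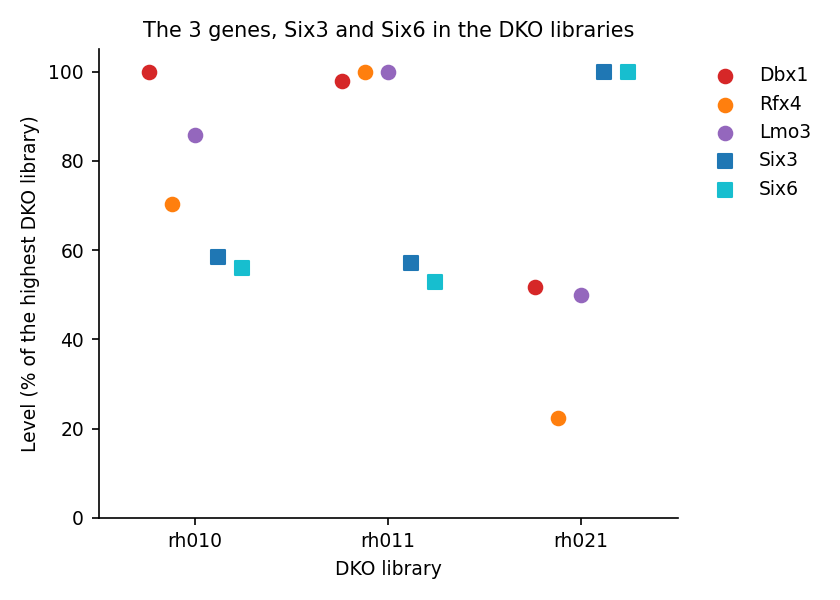
Level of the 3 genes (circles) and of Six3 and Six6 (squares) in each DKO library (horizontal axis), as a percentage of the highest DKO library of that gene (vertical axis). Library rh021 is lowest for Dbx1, Rfx4 and Lmo3 (51.7%, 22.5% and 49.9%) and highest for Six3 and Six6.

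Among related genes, edgeR called 7 in DKO against WT, in both directions. The 6 lists were written from general knowledge, with earlier results on some of their genes known. Of 172 listed genes besides the 3, 112 were tested. The other listed genes were not analysed here, so the counts cover only a part of each list. In DKO against WT, 4 rose and 3 fell (6.25%), against 1.29% of all genes (0.655% higher and 0.639% lower). At an unadjusted p under 0.05 there were 43 of the 112, against 1728 of all 13292 genes, and DESeq2 called 31 of the 112, against 769 of all genes. The median log2 fold change was -0.12 over the listed genes and -0.00 (-0.0036) over all genes. In DKO against Six3KO, 4 listed genes rose and 0 fell (3.57%, against 0.587% of all genes), and in DKO against Six6KO 1 rose and 0 fell (0.893%, against 0.233%). None of the 112 was called by edgeR in Six3KO against WT or in Six6KO against WT, where 1 gene (0.00752%) and 0 genes (0%) of all tested were called. At an unadjusted p under 0.05, 7 and 4 of the listed genes passed in these comparisons, against 465 and 518 of all genes. DESeq2 called 1 and 0 of the listed genes, against 20 and 2 of all genes. Call counts in DKO against WT depended on single libraries. They were 2 of 112 without WT rh016, DKO rh010 or DKO rh011, 3 without WT rh024 or Six3KO rh006, and 13 without Six3KO rh026.

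Factors of neural tube progenitor domains went both ways. Of 40 listed, 23 were tested. Of these, 3 rose, with Zic1 and Zic4 among them, 2 fell (Irx3 and Irx5) and 18 did not pass. The share called was 21.7%, against 1.29% of all genes, and the median log2 fold change was 0.35. At an unadjusted p under 0.05 there were 16 of the 23, against 1728 of all 13292 genes. DESeq2 called 6 higher and 7 lower, against 769 of all genes. Zic1, a zinc finger factor of the dorsal neural tube, stood at 65.3, 87.3 and 88.9 CPM in WT, 90.3, 100 and 107 CPM in Six3KO, 136 and 89.2 CPM in Six6KO and 379, 378 and 265 CPM in DKO. Its log2 fold change in DKO against WT was 2.08 ± 0.20 (adjusted p = 0.00257), and it was the listed gene called in all 3 comparisons with DKO. Library rh021 was the lowest DKO library here too. Zic4, a related gene beside Zic1 whose exons share 60 bases with it on the other strand, rose by 3.12 ± 0.35 (adjusted p = 0.00472). Irx3, an Iroquois factor that helps set ventral and intermediate domains, stood at 40.6, 18.8 and 45.6 CPM in WT against 1.89, 4.14 and 3.88 CPM in DKO (-3.40 ± 0.54, adjusted p = 0.0236), and Irx5 at -2.60 ± 0.43 (adjusted p = 0.0274). Both of these calls were lost without WT rh016 or rh024, Six3KO rh006, or DKO rh010 or rh011 (adjusted p up to 0.134 for Irx3 and 0.151 for Irx5). Within WT and Six3KO, Irx3 and Irx5 were lowest in rh023 and rh012 (Irx3 at 18.8 and 10.4 CPM). The summed markers of periocular mesenchyme, a tissue around the retina, were also lowest there (357 and 387 CPM), and in DKO they were lower still. Sums of pigment epithelium, blood vessel and surface ectoderm markers were lowest in rh023 and rh012 within WT and Six3KO, but lens sums were not. A part of any of these tissues in the levels of Irx3 and Irx5 was not tested. The paralog of Dbx1, Dbx2, was not analysed here, nor were the listed genes Pax7, Nkx6-1, Nkx2-2 and Olig3.

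Among genes of neurons that descend from Dbx1-expressing progenitors, edgeR called 1. Of 28 listed, 17 were tested. Of these, 0 rose and 1 fell (5.88%, against 1.29% of all genes), with a median of -0.51. At an unadjusted p under 0.05 there were 7 of the 17, against 1728 of all 13292 genes. The gene that fell was Sst, the neuropeptide somatostatin, at 15.2, 12.1 and 11.47 CPM in WT against 1.48, 1.24 and 3.96 CPM in DKO (-2.53 ± 0.48, adjusted p = 0.0415). This call was lost in 9 of 17 alternatives (adjusted p up to 0.218), among them leaving out any WT library, DKO rh010 or DKO rh011. DESeq2 called 2 of the 17 higher and 5 lower, against 769 of all genes. Evx1, the defining factor of ventral V0 interneurons, was not analysed here, nor were the listed genes Lhx1, Lhx5 and Pax8.

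RFX and cilium genes had no call. Of 25 tested, 0 passed in edgeR, with a median of -0.01. At an unadjusted p under 0.05 there were 4 of the 25, against 1728 of all 13292 genes. DESeq2 called 1 higher and 2 lower, against 769 of all genes. Among the other RFX genes, Rfx3, a regulator of motile and primary cilia, stood at log2 0.36 ± 0.16 (adjusted p = 0.383), Rfx5, a regulator of MHC class II genes, at 0.69 ± 0.34 (adjusted p = 0.446), and Rfx7 at 0.05 ± 0.16. Rfx1 and Rfx2 stood at -0.15 ± 0.17 and -0.18 ± 0.24. In RPKM, Rfx3 was the most abundant of the family in DKO (24.5), above Rfx7 (14.1), Rfx5 (6.10), Rfx4 (3.89), Rfx1 (3.65) and Rfx2 (2.11). The smallest p of the list was that of Gli1, a Hedgehog target, at -4.63 ± 0.93 (adjusted p = 0.0521), with 57.0, 110 and 34.9 CPM in WT against 0.246, 1.16 and 6.66 CPM in DKO. Exons of Gli1, Gli3, Rfx1, Rfx5 and Rfx7 overlap those of opposite-strand genes, for Rfx5 over 1471 bases. Gli3, the Hedgehog pathway repressor, followed at 0.70 ± 0.18 (adjusted p = 0.111).

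The partners and relatives of Lmo3 also had no call. Of 18 LIM-only, LDB and LIM-homeodomain genes, 0 passed in edgeR, with a median of -0.14. At an unadjusted p under 0.05 there were 6 of the 18, against 1728 of all 13292 genes. DESeq2 called 1 higher and 4 lower, against 769 of all genes. The other LIM-only genes stood below WT in DKO or close to it. Lmo2 had 11.47 ± 4.13 CPM in WT against 4.69 ± 0.265 CPM in DKO (SD, n = 3 each; log2 -1.29 ± 0.35, edgeR adjusted p = 0.126), and Lmo1 had 11.8 ± 3.10 against 5.59 ± 1.33 CPM (-1.08 ± 0.29, edgeR adjusted p = 0.127). Lmo4 stood at -0.17 ± 0.19. Per kilobase, Lmo4 was the most abundant of the family in DKO (10.98 RPKM), and Lmo3 (4.15 RPKM), Lmo1 (3.60 RPKM) and Lmo2 (2.17 RPKM) followed. In WT the order was Lmo4 (12.4), Lmo1 (7.60), Lmo2 (5.29) and Lmo3 (0.272 RPKM).

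Signals of the roof plate and dorsal midline held 1 gene that rose. Of 20 tested, Wnt3a rose (5%, against 1.29% of all genes), 0 fell and 19 did not pass, with a median of -0.47. At an unadjusted p under 0.05 there were 3 of the 20, against 1728 of all 13292 genes. DESeq2 called 1 higher and 1 lower, against 769 of all genes. Wnt3a, a dorsal midline Wnt ligand, had 17, 1 and 7 reads in WT, 6, 5 and 7 in Six3KO, 6 and 18 in Six6KO and 115, 122 and 69 in DKO. Like the 3 genes, it was low in every group but DKO and lowest among DKO libraries in rh021. Its log2 fold change was 3.36 ± 0.66 over WT (adjusted p = 0.0476) and 4.01 ± 0.69 over Six3KO (adjusted p = 0.0393). The call against WT was lost in 11 of 17 alternatives (adjusted p up to 0.201), among them every fit that left out a WT or DKO library. Of 38 listed regional factors of forebrain and midbrain, 17 were tested and 0 passed in edgeR, with a median of -0.39. At an unadjusted p under 0.05 there were 9 of the 17, against 1728 of all 13292 genes. DESeq2 called 1 higher and 2 lower, against 769 of all genes. Vax1, a factor of the optic stalk and ventral forebrain, stood at 2.02 ± 0.59 (adjusted p = 0.148) and Emx2, a cortical factor, at -3.92 ± 1.25 (adjusted p = 0.19). Within WT and Six3KO, Emx2 was lowest in rh023 and rh012 (0.463 and 0.768 CPM), the libraries of those groups with the lowest periocular mesenchyme sums. They also had the lowest sums of pigment epithelium, blood vessel and surface ectoderm markers there, though not of lens markers. A part of any of these tissues in the level of Emx2 was not tested.

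**Figure D3:**
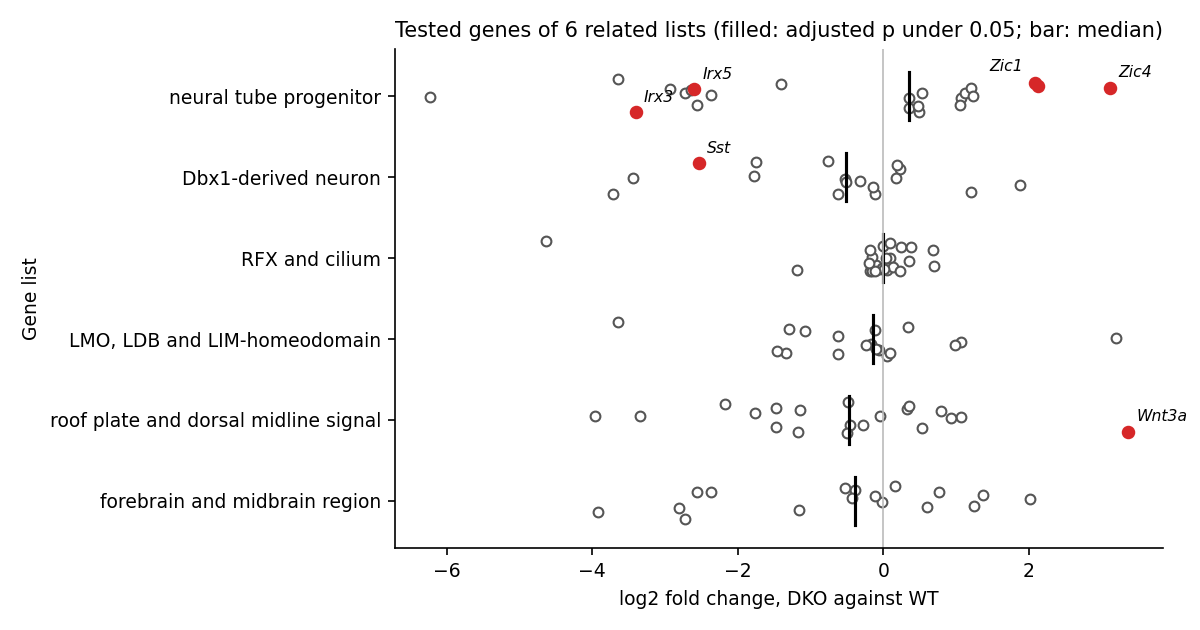
Log2 fold change in DKO against WT (horizontal axis) of the tested genes of 6 lists (vertical axis, points spread at random within a list), with Dbx1, Rfx4 and Lmo3 left out. Filled points passed an adjusted p of 0.05 (4 higher, 3 lower), and the list medians (black bars) run from -0.51 to 0.35.

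Of the neighbouring genes, 1 rose, by far less than Dbx1, Rfx4 or Lmo3. The 3 nearest tested genes on each side of each gene, 18 in all, had a median log2 fold change of -0.03 in DKO against WT over the 17 with reads in WT, and 1 (5.56%) was called, against 1.29% of all genes. That gene was Prmt3, a protein arginine methyltransferase gene 141 kb from Dbx1, which rose by 0.66 ± 0.11 (adjusted p = 0.0281). It stood at 52.4, 47.8 and 41.8 CPM in WT, 44.3, 48.6 and 45.2 CPM in Six3KO, 46.1 and 52.2 CPM in Six6KO and 76.8, 78.6 and 69.0 CPM in DKO. The call was lost without WT rh023 or rh024, Six3KO rh006, or DKO rh010 or rh011 (adjusted p 0.0572 to 0.152). Csrp3, 783 kb from Dbx1, had 0 reads in each WT library, 8, 0 and 30 in Six3KO, 17 and 72 in Six6KO and 2, 13 and 1 in DKO. Between Dbx1 and Prmt3 lies Htatip2, at -0.38 ± 0.79. On the other side, 21.4 kb away, Nav2 averaged 85.6 CPM in WT against 50.8 CPM in DKO (-0.75 ± 0.19, adjusted p = 0.111). The nearest neighbours of Rfx4 were Ric8b, 11.1 kb away at 0.09 ± 0.09, and Polr3b, 28.9 kb away at 0.22 ± 0.10. The nearest tested neighbours of Lmo3 were Mgst1, 206 kb away at 0.11 ± 0.55, and Plekha5, 1842 kb away at 0.06 ± 0.17. Pde3a, a phosphodiesterase gene 2667 kb from Lmo3, had the largest estimate among the 17 neighbours with WT reads, with means of 12.9 CPM in WT and 3.65 CPM in DKO (-1.81 ± 0.43, adjusted p = 0.0897). DESeq2 called Nav2 and Pde3a lower besides Prmt3 (adjusted p = 0.0107 and 0.00359), against 769 of all genes.

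**Figure D4:**
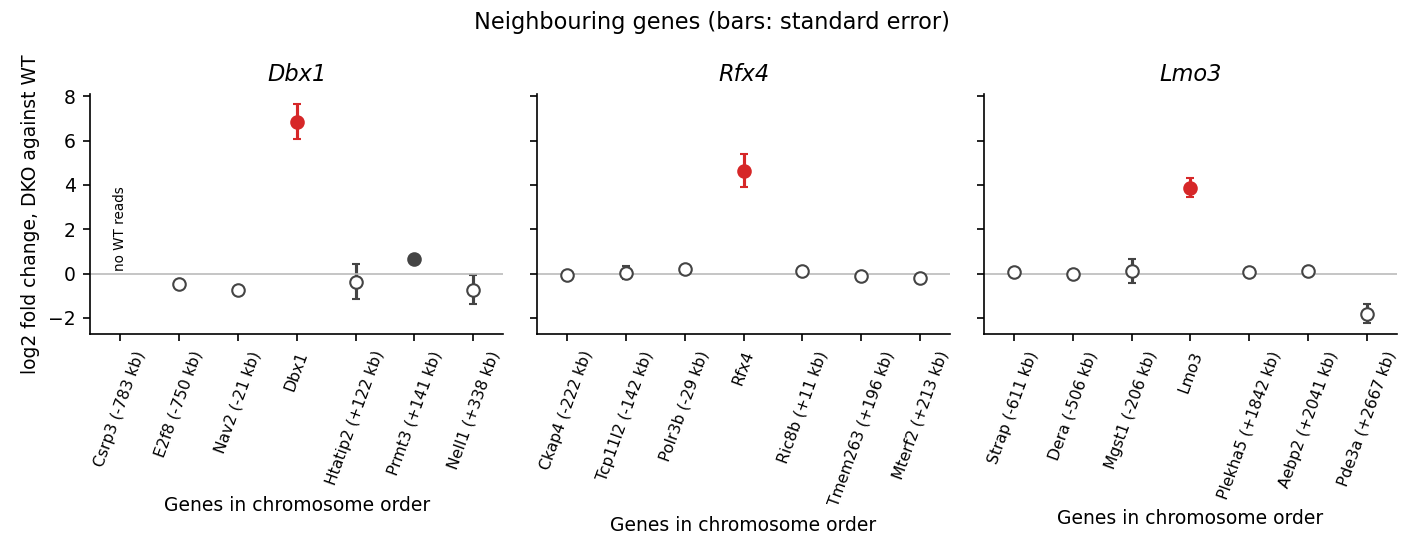
Log2 fold change in DKO against WT (vertical axis; bars, standard error) of Dbx1, Rfx4 and Lmo3 (red) and of the 3 nearest tested genes on each side (horizontal axis, chromosome order, distance in kb). Filled grey marks Prmt3, the 1 neighbour called, at 0.66, and Csrp3, with no reads in WT, has no point.

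Genes with the most similar pattern were found by Pearson correlation of log2 CPM over the 11 libraries, among the 13146 genes that averaged 1 CPM or more. The points share the 3 DKO libraries, which stand apart, so r mainly ranks genes that separate DKO from the rest. The members were chosen for their levels in WT and DKO, so a high r between them follows from that choice. Lmo3 ranked first for Dbx1 (r = 0.97), followed by A730017C20Rik, Prmt3, Sh3bgrl2 and Slc16a1, a monocarboxylate transporter gene (0.96 to 0.97). For Lmo3 the AP-2 factor gene Tfap2c ranked first (0.98), followed by Slc16a1, Dbx1, Sh3bgrl2 and Prmt3. Tfap2c stood at 8.52, 2.78 and 4.59 CPM in WT against 84.0, 108 and 61.3 CPM in DKO. For Rfx4 the closest were Glis3, a zinc finger factor gene (0.96), Ptprz1, a receptor phosphatase of neural progenitors, Sox3, a progenitor factor, Mad2l2 and A730017C20Rik (0.95 to 0.96). Sox3 stood at 10.6, 11.3 and 12.5 CPM in WT, 11.7, 13.2 and 7.06 CPM in Six3KO, 18.4 and 11.7 CPM in Six6KO and 27.3, 31.6 and 21.9 CPM in DKO. Over the 8 libraries outside DKO, r between the members was 0.40 for Dbx1 and Lmo3, -0.07 for Rfx4 and Lmo3 and -0.82 for Dbx1 and Rfx4, where Dbx1 had at most 3 reads a library.

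**Figure D5:**
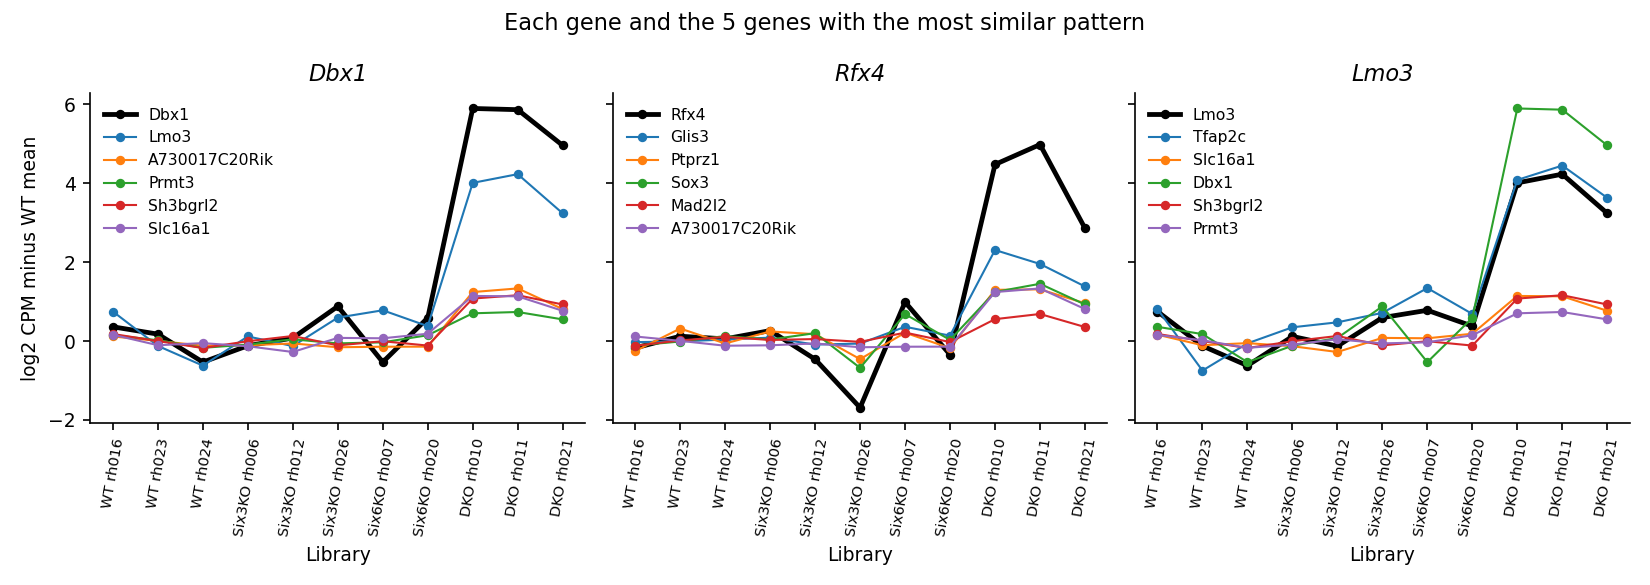
Log2 CPM minus the WT mean (vertical axis) of Dbx1, Rfx4 and Lmo3 (black) and of the 5 genes with the highest correlation to each (colours) in the 11 libraries (horizontal axis); lines only link the points of a gene. In DKO library rh021 Dbx1, Rfx4 and Lmo3 lie below their values in rh010 and rh011.

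Among markers of other tissues, the sums of periocular mesenchyme and of blood vessel were lower in each DKO library than in all other libraries. The other sums overlapped between DKO and other groups. The part of these tissues in the gain of the 3 genes was not tested. Fewer cells of a type and less RNA per cell cannot be told apart in these bulk samples. The summed level of 12 of 12 periocular mesenchyme markers was 49.9 to 116 CPM in DKO, 357 to 2066 CPM in WT, 387 to 3765 CPM in Six3KO and 1467 to 2321 CPM in Six6KO. The 8 of 8 blood vessel markers summed to 113 to 114 CPM in DKO and 188 to 332 CPM in WT (180 to 335 CPM in Six3KO, 281 to 336 CPM in Six6KO), and no marker of either was at 0 in all DKO libraries. Lens markers (10 of 10) summed to 7.29 to 133 CPM in DKO, 27.1 to 936 CPM in WT, 186 to 16292 CPM in Six3KO and 39.3 to 7696 CPM in Six6KO. The surface ectoderm markers (8 of 8) summed to 17.4 to 49.8 CPM in DKO and 41.2 to 338 CPM in WT (42.4 to 282 CPM in Six3KO, 127 CPM in Six6KO). Pigment epithelium markers (7 of 8) summed to 64.9 to 232 CPM in DKO, 41.9 to 1516 CPM in WT, 17.5 to 1472 CPM in Six3KO and 471 to 1666 CPM in Six6KO. Red blood cell markers (6 of 6, with 3 at 0 in each library) summed to 512 to 642 CPM in DKO and 605 to 2010 CPM in WT. They summed to 161 to 1091 CPM in Six3KO and 473 to 3716 CPM in Six6KO. Of 11 markers of hypothalamus and telencephalon, 2 (Pomc and Gsx2) were analysed here, and they summed to 1.59 to 2.07 CPM in DKO against 2.197 to 6.41 CPM in WT, 1.25 to 6.15 CPM in Six3KO and 3.02 to 8.67 CPM in Six6KO. Macrophage markers (5 of 6, none at 0) summed to 35.7 to 86.5 CPM in DKO and 19.1 to 39.6 CPM in WT. They summed to 43.9 to 58.7 CPM in Six3KO and 28.8 to 57.7 CPM in Six6KO.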

How the data were processed

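Retinal RNA libraries were made with KAPA RNA HyperPrep with RiboErase, per the labels' protocols. The deposited values are raw read counts per gene. The submitters' processing notes name Trim Galore 0.3.7, TopHat2 2.0.13, HTSeq 0.6.1, Cufflinks 2.2.1, Cuffdiff and the build mm10, and the series' design text names DESeq2. No source used here names the annotation or the strand setting. Exons of Irx3, Emx2, Polr3b and Pde3a also overlap those of opposite-strand genes, and exons of Prmt3 and Nav2 overlap those of a same-strand gene. The authors removed 1 Six6KO library for high duplication.

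Here edgeR 4.0.16 (R 4.3.3) was fitted to all 11 libraries, with TMM scaling, filterByExpr at a minimum count of 10 (13292 of 13498 genes kept), 4 group means and the robust quasi-likelihood test. Calls had a Benjamini-Hochberg adjusted p below 0.05 over all genes. Standard errors were derived as the size of the log2 fold change divided by the square root of the F statistic of that test. They are approximate, above all for genes with few reads. The script was tested on simulated data. RPKM used GENCODE vM21 exon lengths, matched by symbol for 97.9% of genes. DESeq2 1.42.0, other scalings, no filter, the compared groups alone and leaving out libraries were alternatives. Columns carry a group and a library name, and libraries are named so. The members, lists and motifs were chosen with earlier results of these data known. The values of 1 called list gene are not reported here. Named list genes are those called in DKO against WT and, in lists with no call, those with the smallest p, beside the members' families, neighbours and most similar genes.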

Additional observations from a re-analysis of the deposited data

How the results depend on the processing

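The log2 fold change of DKO over WT lay between 6.42 and 7.49 for Dbx1, 4.17 and 5.04 for Rfx4, and 3.61 and 4.45 for Lmo3 over 17 alternatives. The highest values of Dbx1 (7.49) and Lmo3 (4.45) came without WT rh016. Six3KO against Six6KO spanned -0.55 to 3.78 for Dbx1 when 1 library was left out, and turned to -0.50 without Six3KO rh026 and -0.55 without Six6KO rh007. The value of 3.78, without Six6KO rh020, is set against 0 reads. Dbx1 and Rfx4 gave no value with the 2 groups alone, where they fell below the filter. The difference spanned -1.83 to -0.02 for Rfx4 and -0.64 to -0.16 for Lmo3.

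Called genes in DKO against WT numbered 172, 769 with DESeq2, 283 without Six3KO rh026 and Six6KO rh020, and 20 to 279 with 1 library left out. Called list genes in DKO against WT numbered 7, 12 with no scaling beyond the library total, 31 with DESeq2, 15 without those 2 libraries, and 2 to 13 with 1 left out. Against Six3KO they numbered 4, 20 with DESeq2 and 1 to 6 with 1 left out. Against Six6KO they numbered 1, 2 with no scaling, 19 with DESeq2, 19 with the 2 groups alone, 0 without those 2 libraries and 0 to 4 with 1 left out. Called neighbours numbered 1, 3 with DESeq2, 2 without those 2 libraries and 0 to 1 with 1 left out. The cause was not tested. No paired analysis was possible because the columns carry no replicate number. With 0 to 3 reads of Dbx1 a library outside DKO, depth limits any difference among the other groups.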
